A study of Mus musculus with 6 samples.

Results

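Genes for the proteins of the mitochondrial ribosome were compared between B16-F10 tumors of the ACT + IL-2 and the ACT + NKTR-214 group of mice. The members were the entries of the deposited FPKM table whose symbol begins with *Mrpl* or *Mrps* followed by a digit, without pseudogenes and without symbols that carry a copy number. This rule gave 78 of 21358 entries, and it used no measured value. FPKM is the number of reads of a gene divided by its exon length and by the mapped reads of the library. Of the 78 genes, 51 code for proteins of the large subunit, 26 for proteins of the small subunit, and *Mrps36* codes for a protein that is now placed in the 2-oxoglutarate dehydrogenase complex. The products of *Mrps18a* and *Mrps30* are counted with the large subunit, where they sit despite their symbols.

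All 6 tumors grew from the mouse melanoma line B16-F10, which makes the pigment cell antigen gp100, implanted under the skin of C57BL/6 mice. Every host received 500 cGy of total body irradiation and an adoptive cell transfer (ACT) of pmel-1 splenocytes (with CD8 T cells bearing a transgenic receptor against gp100) once the tumor had reached at least 150 mm3. In 3 mice the transfer was followed by IL-2, at 0.4 mg/kg on 3 days of each cycle. In the other 3 mice it was followed by NKTR-214, a pegylated IL-2, at 0.8 mg/kg on 1 day of each cycle, and cycles were 9 days apart in both groups. Whole tumors were taken at day 12 of treatment, with 1 library for each mouse and no group without cytokine. The hosts were females of 6 to 8 weeks by the study's reporting summary.

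Mitochondrial ribosomes translate the few messages of the mitochondrial genome, which code for core subunits of the respiratory chain. Their RNA is made in the mitochondrion, whereas all of their proteins are encoded in the nucleus, made on cytosolic ribosomes and imported. Some of these proteins descend from those of bacterial ribosomes and others are found only in mitochondria. In melanoma the coactivator PGC-1α, the product of *Ppargc1a*, is known as a driver of genes for mitochondria downstream of the pigment cell factor MITF. No message or ribosomal RNA of the mitochondrial genome was among the entries of the table (0 of 15 searched), so the product of these ribosomes was not analysed here.

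The summed level of the family was a smaller share of the transcriptome in ACT + NKTR-214 tumors. The 78 genes held 0.753%, 0.754% and 0.753% of the FPKM sum in the ACT + IL-2 tumors (replicates 1 to 3, the order used throughout) and 0.649%, 0.603% and 0.629% in the ACT + NKTR-214 tumors. The 3 ACT + IL-2 tumors were nearly the same and all 3 ACT + NKTR-214 tumors lay below them, with group means of 0.753% ± 0.000470 and 0.627% ± 0.0229 (SD, n = 3), a share 16.8% lower. The share of the large subunit was 0.536% ± 0.00220 in ACT + IL-2 and 0.446% ± 0.0151 in ACT + NKTR-214, and that of the small subunit was 0.217% ± 0.00259 and 0.181% ± 0.00784 (SD, n = 3). Counted in reads, the family took 3232, 3185 and 3193 reads per 1000000 gene reads in the ACT + IL-2 tumors and 2900, 2703 and 2759 in the ACT + NKTR-214 tumors, which is 13.0% lower. Gene reads are those of the entries whose reads were recovered, as described below. The shares and reads above are descriptions of a list, and no p-value was computed for them. In RNA from whole tumors, fewer cells of a type and less RNA per cell cannot be told apart.

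One library has to be described before single genes are compared. FPKM values step in whole reads, which allowed the reads behind them to be recovered for 96.8% of the entries that could be checked and for all 78 members. About 20900000 to 24600000 mapped reads lay behind each library. The reads in genes were summed over the entries with recovered reads, so those of other entries are missing. Reads in genes were 61.8%, 48.4% and 60.0% of mapped reads in the ACT + IL-2 tumors and 62.2%, 61.9% and 56.5% in the ACT + NKTR-214 tumors. FPKM divides by all mapped reads, so a library with fewer of them in genes has lower values throughout. The summed FPKM of the family was 1739 and 1645 in ACT + IL-2 replicates 1 and 3 but 1330 in replicate 2, against 1572, 1487 and 1368 in ACT + NKTR-214. Replicate 2 of ACT + IL-2 was the lowest of its group for 75 of the 78 members and the lowest of all 6 tumors for 38. *Lars2*, the mitochondrial leucyl-tRNA synthetase, ran the opposite way, with 45.8, 205 and 20.7 FPKM in ACT + IL-2 and 31.3, 28.3 and 113 in ACT + NKTR-214. It was highest in the 2 libraries with the lowest share of reads in genes, and its part in these shares was not tested.

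**Figure D1:**
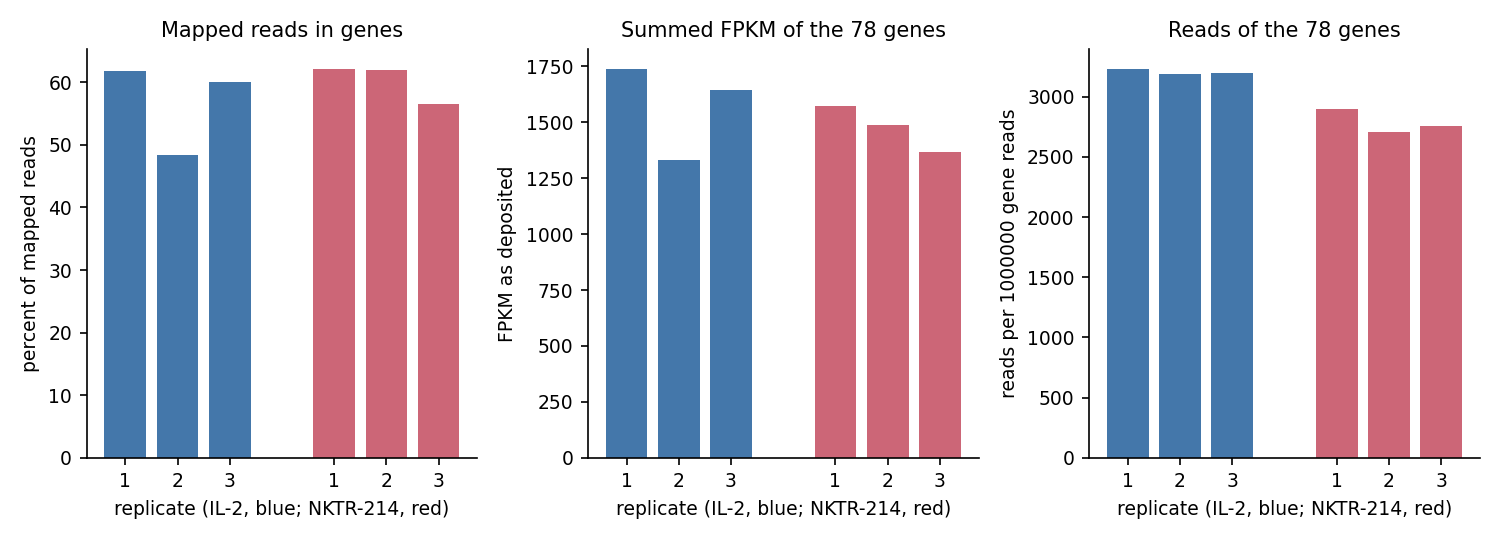
Bars give 1 tumor each for ACT + IL-2 (blue) and ACT + NKTR-214 (red), replicates 1 to 3. Gene reads are those of entries with recovered reads. The left panel shows the percent of mapped reads that lay in genes, the middle panel the summed FPKM of the 78 mitochondrial ribosomal protein genes as deposited, and the right panel their reads per 1000000 gene reads. ACT + IL-2 replicate 2 is low in the first 2 panels (48.4% and 1330), whereas in the third all ACT + IL-2 tumors (3185 to 3232) stand above all ACT + NKTR-214 tumors (2703 to 2900).

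On FPKM as deposited, few single members passed the test. Groups were compared with limma on log2(FPKM + 1) in a fit of 14172 genes, those whose FPKM averaged 0.1 or more. Adjusted p-values (Benjamini-Hochberg) were taken over the whole fit and held against 0.05. All 78 members entered it. One member, *Mrps16*, rose in ACT + NKTR-214, against 20.7% of all genes tested, and 1 member, *Mrpl12*, fell, against 8.28% of all genes tested. Without adjustment, 2 members were higher and 9 lower at p under 0.05, where 26.2% and 13.2% of all genes were. The median log2 fold change was -0.08 over the members and 0.05 over all genes tested. It was negative for 55 of the 78 members, and for 44.3% of all genes. The 3 ACT + NKTR-214 values lay below the 3 ACT + IL-2 values for 11 members, a share of 14.1% that is close to the 15.3% of all genes, and above them for 2 members, against 27.1% of all genes.

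The counts changed when libraries were put on a common scale. After scaling to a common 75th percentile, 2 members were called higher and 34 lower in ACT + NKTR-214, where 23.0% and 26.2% of all genes tested were. The lower members were then 43.6% of the family. Their groups did not overlap, with ACT + NKTR-214 lower, for 49 members, or 62.8%, against 33.8% of all genes. They did not overlap in the other direction for 2 members, against 27.9%. Quantile normalization gave 2 higher and 37 lower members (18.8% and 32.1% of all genes), a common FPKM sum 2 and 45 (20.6% and 31.3%), and a common number of gene reads 2 and 32 (23.7% and 24.7%). The median log2 fold change of the members was -0.18, -0.20, -0.25 and -0.16 under these 4 scalings, and that of all genes was -0.03, -0.10, -0.08 and -0.02. The same 32 members were called lower, and the same 2 higher, under all 4, and 46 members were called lower under at least 1. The share of all genes that met these conditions is not given here. All 4 scalings use the same tumors and are not independent of each other. No member differed by 0.5 or more on the log2 scale as deposited, whereas 77.8% of all genes stayed under that size. Without ACT + IL-2 replicate 2, the deposited values called 13 members lower and 0 higher, with a median of -0.18. The share of all genes called in that fit is not given here, so this count is not read as a result about the members.

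**Figure D2:**
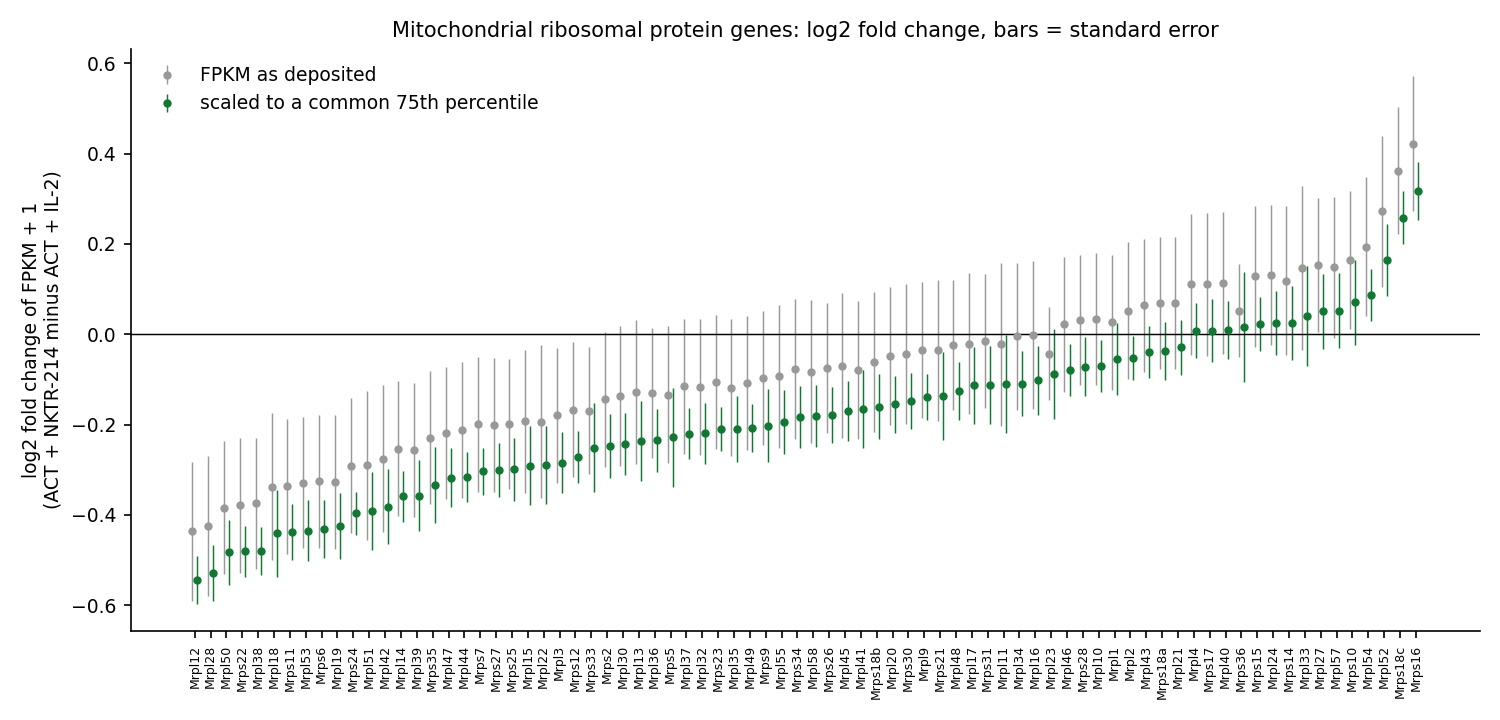
Points give the log2 fold change of FPKM + 1 for each of the 78 genes, ACT + NKTR-214 minus ACT + IL-2, as deposited (grey) and after scaling to a common 75th percentile (green), with the standard error from limma as bars. Genes are ordered by the scaled value. The scaled points lie below the grey ones by about the same amount in most genes, and their bars are shorter (median standard error 0.0689 against 0.150), with 63 of 78 below 0.

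Scaling also narrowed the spread between tumors of 1 group. The median SD of a member's log2 value was 0.19 within ACT + IL-2 and 0.12 within ACT + NKTR-214 as deposited, and 0.06 and 0.08 after 75th percentile scaling. The counting error of the reads alone came to 0.07 on this scale. A member had a median of 478.5 reads in a library, with a range from 2 to 1801, and 66 members had more than 200 reads in every library. The median SD after scaling was of about the size of the counting error in both groups. An SD of 3 values tends to fall below the true spread, so the order of these values was not interpreted. For 1 gene on its own, 3 tumors against 3 allow no p below 0.1 in an exact permutation test (two-sided), and limma goes lower by borrowing the variance of other genes.

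The sequence before the start sites of the members was examined as well. Promoter sequence of RefSeq (GRCm38.p6) was matched for 69 of the 78 members. The 250 bases before the start were searched on both strands for 5 motifs named for factors known at genes for mitochondria or at many promoters. The NRF1 core CGCANGCG was in 24.6% of the 69 members. It was in 14.7% of tested genes with a promoter and in 7.65% of all genes with a promoter. The ETS motif CCGGAAG, as bound by GABP, was in 26.1%, 14.4% and 7.83%. At least 1 of these was found in 31 members, and both in 4. YY1's AAGATGGCG was in 2.90%, 1.26% and 0.71%, the E-box CACGTG in 7.25%, 9.54% and 6.86%, and CCAAT in 36.2%, 40.1% and 37.5%. Members with an NRF1 match had a median scaled log2 fold change of -0.21 and those without one -0.17. For the ETS motif these were -0.15 and -0.19. A match is only a run of letters and shows no binding.

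The promoters of 5 members follow, with motif matches in capitals: both members that passed the test on deposited values (*Mrps16* and *Mrpl12*), a pair of members low under every scaling (*Mrpl28* and *Mrps22*), and *Mrpl52*, which was not low. Only bases that lie in no annotated exon are shown. They are chr14:20393635-20393884 (minus strand), chr11:120484387-120484612 (plus), chr17:26123255-26123499 (plus), chr9:98601680-98601929 (minus) and chr14:54426659-54426908 (plus) of GRCm38.
Mrps16: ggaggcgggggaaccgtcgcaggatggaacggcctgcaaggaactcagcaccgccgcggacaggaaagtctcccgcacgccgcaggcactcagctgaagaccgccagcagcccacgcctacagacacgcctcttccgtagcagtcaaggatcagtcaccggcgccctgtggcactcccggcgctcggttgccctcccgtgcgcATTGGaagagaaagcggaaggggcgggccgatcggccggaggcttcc
Mrpl12: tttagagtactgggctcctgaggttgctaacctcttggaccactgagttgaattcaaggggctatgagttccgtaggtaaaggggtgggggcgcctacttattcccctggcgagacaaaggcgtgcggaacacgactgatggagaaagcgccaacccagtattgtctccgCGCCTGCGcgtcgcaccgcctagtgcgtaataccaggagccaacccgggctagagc
Mrpl28: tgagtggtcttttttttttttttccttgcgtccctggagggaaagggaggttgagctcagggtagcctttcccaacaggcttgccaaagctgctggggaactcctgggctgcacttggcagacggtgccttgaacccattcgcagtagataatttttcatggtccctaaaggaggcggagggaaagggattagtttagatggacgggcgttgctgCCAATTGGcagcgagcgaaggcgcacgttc
Mrps22: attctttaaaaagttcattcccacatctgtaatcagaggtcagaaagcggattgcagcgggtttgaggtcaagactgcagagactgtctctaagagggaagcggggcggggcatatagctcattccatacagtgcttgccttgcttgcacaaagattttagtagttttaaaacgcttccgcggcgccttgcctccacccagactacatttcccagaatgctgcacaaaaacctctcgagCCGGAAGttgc
Mrpl52: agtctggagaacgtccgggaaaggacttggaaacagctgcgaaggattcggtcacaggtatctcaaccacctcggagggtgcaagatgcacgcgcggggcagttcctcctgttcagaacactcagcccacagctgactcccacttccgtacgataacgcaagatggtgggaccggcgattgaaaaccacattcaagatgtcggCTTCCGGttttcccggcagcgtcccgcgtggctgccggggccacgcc
The capitals are CCAAT on the opposite strand in *Mrps16*, the NRF1 core on the opposite strand in *Mrpl12*, CCAAT in both directions with shared bases in *Mrpl28*, and the ETS motif in *Mrps22* and, on the opposite strand, in *Mrpl52*. A second annotated start of *Mrps16*, whose sequence is not shown, has an ETS match 74 bases before it. A member called lower under every scaling and members that were not thus carried the same ETS letters.

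*Mrps16*, which codes for a bacterial-type protein of the small subunit body, was the member with the largest rise. Its values were 27.6, 20.4 and 22.8 FPKM in ACT + IL-2 and 32.8, 33.4 and 29.2 in ACT + NKTR-214, with no overlap. These values rest on 373, 265 and 271 reads and on 459, 462 and 393 reads. The log2 fold change was 0.42 with a standard error of 0.15 (adjusted p = 0.0457, limma), and 0.32 after 75th percentile scaling (adjusted p = 0.00753, limma). On deposited values the call was lost in 4 of the 6 fits that left out 1 tumor: adjusted p was 0.0750 without ACT + IL-2 replicate 2, 0.146 without ACT + IL-2 replicate 3, 0.145 without ACT + NKTR-214 replicate 1 and 0.171 without ACT + NKTR-214 replicate 2. On a common number of gene reads, it was called in each of the 6 such fits. The gene lies at chr14:20389304-20393634 on the minus strand of GRCm38.

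*Mrpl12* was the member with the largest fall. Its product belongs to the stalk of the large subunit, where translation factors dock, and also binds the mitochondrial RNA polymerase. The level was 60.9, 46.9 and 61.4 FPKM in ACT + IL-2 and 43.4, 40.7 and 39.3 in ACT + NKTR-214, with every ACT + NKTR-214 tumor below every ACT + IL-2 tumor. Behind these were 1381, 1022 and 1222 reads, and 1019, 944 and 888 reads. The log2 fold change was -0.44 with a standard error of 0.15 (adjusted p = 0.0444, limma), and -0.54 after scaling (adjusted p = 0.000797, limma). Leaving out any tumor but ACT + IL-2 replicate 2 raised the adjusted p of the deposited values to between 0.0898 and 0.203 (limma), whereas without that tumor it was 0.0103. All 6 fits on a common number of gene reads called it. Within a tumor, the ratio of *Mrps16* to *Mrpl12* FPKM needs no scaling: it was 0.453, 0.435 and 0.372 in ACT + IL-2 and 0.755, 0.821 and 0.742 in ACT + NKTR-214. The pair was put together after its values were seen.

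A further setting placed each member against the middle of the family. When the median log2 value of the family was subtracted in each tumor, 3 members were called higher and 20 lower in ACT + NKTR-214, where 23.0% and 16.1% of all genes were against the same median. Groups did not overlap for 6 members in the upward and 35 in the downward direction, against 29.2% and 23.3%. The third higher member beside *Mrps16* and *Mrps18c* was *Mrpl52* (adjusted p = 0.0352, limma). The median level itself was 0.02 higher in ACT + NKTR-214, and the median log2 fold change of the members was -0.10 in this setting. The subtraction thus did not remove the negative median of the members. Its calls do not show members that departed from a common change of the family. The setting was added after the data were seen.

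The 3 *Mrps18* paralogs did not move together. All descend from the bacterial S18 protein, and a ribosome holds each of them at a different place. *Mrps18c* had 17.1, 14.2 and 15.7 FPKM in ACT + IL-2 and 21.4, 20.8 and 19.0 in ACT + NKTR-214, without overlap. Its log2 fold change of 0.36 did not pass the test on deposited values (adjusted p = 0.0644, limma), and the scaled one of 0.26 did (adjusted p = 0.0106, limma), as it did under the other 3 scalings. *Mrps18b* had 12.4, 9.06 and 11.3 FPKM and then 11.7, 9.78 and 9.74, with overlapping groups and a log2 fold change of -0.06 that was -0.16 after 75th percentile scaling. It was called lower only with a common FPKM sum (-0.23, adjusted p = 0.0492, limma). *Mrps18a* had 30.2, 23.2 and 26.6 FPKM and then 29.7, 26.7 and 27.2, with a log2 fold change of 0.07 that turned negative under all 4 scalings (-0.11 to -0.02) and was not called under any. The ratio of *Mrps18c* to *Mrps18b* was 1.38, 1.57 and 1.39 in ACT + IL-2 and 1.83, 2.13 and 1.96 in ACT + NKTR-214, and that of *Mrps18c* to *Mrps18a* was 0.566, 0.614 and 0.590 against 0.720, 0.779 and 0.699. Of the 50-base stretches of *Mrps18c*, 22.9% also lie in the annotated exons of other genes, mainly *Gm43511*, and of *Mrps18b* 30.2%, mainly *Gm16279*.

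Among large subunit genes, 22 of 51 (43.1%) were called lower after 75th percentile scaling and 0 higher, against 26.2% and 23.0% of all genes. The following were chosen after their values were seen, from the members low under every scaling. *Mrpl28*, a bacterial-type member, had 35.5, 26.4 and 34.8 FPKM in ACT + IL-2 and 23.5, 26.0 and 21.4 in ACT + NKTR-214. *Mrpl50*, specific to mitochondria, had 12.7, 10.2 and 11.8 and then 9.40, 8.03 and 8.37. *Mrpl38*, another mitochondrial addition, had 32.0, 24.8 and 30.7 FPKM and then 22.8, 22.0 and 21.7. In all 3 genes the groups did not overlap even on deposited values, although none passed the test there (adjusted p = 0.0518, 0.0621 and 0.0647, limma). Their scaled log2 fold changes were -0.53, -0.48 and -0.48. *Mrpl53* had 53.0, 43.7 and 52.1 FPKM and then 39.5, 38.4 and 39.7, but 82.0% of its 50-base stretches lie in exons shared with *Gm42688*, so its reads are uncertain.

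Among small subunit genes, 12 of 26 (46.2%) were called lower after the same scaling, against 26.2% of all genes, and 2 (7.69%), *Mrps16* and *Mrps18c*, higher, against 23.0%. *Mrps22*, specific to mitochondria, had 16.8, 13.2 and 15.9 FPKM in ACT + IL-2 and 12.5, 11.9 and 10.2 in ACT + NKTR-214, with a scaled log2 fold change of -0.48. *Mrps11*, of bacterial type, had 16.2, 12.3 and 14.4 and then 12.1, 10.7 and 10.4 FPKM, with -0.44. *Mrps6*, also of bacterial type, had 32.7, 26.5 and 35.6 and then 25.3, 25.2 and 24.0 FPKM, with -0.43. The 9 mitochondria-specific members of the small subunit all had negative log2 fold changes on deposited values, from -0.38 to -0.01, while 10 of the 17 bacterial-type ones did, and 44.3% of all genes. In the large subunit 15 of 21 mitochondria-specific and 21 of 30 bacterial-type members were negative, and 42.9% and 43.3% were called lower after scaling. Over both subunits, 15 of 30 mitochondria-specific and 19 of 47 bacterial-type members were called lower after scaling, a difference that was not tested. Further small subunit genes that share many of their stretches with a neighbour are *Mrps34* (71.8%, mainly *Mapk8ip3*) and *Mrps25* (68.2%, mainly *Nr2c2*).

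**Figure D3:**
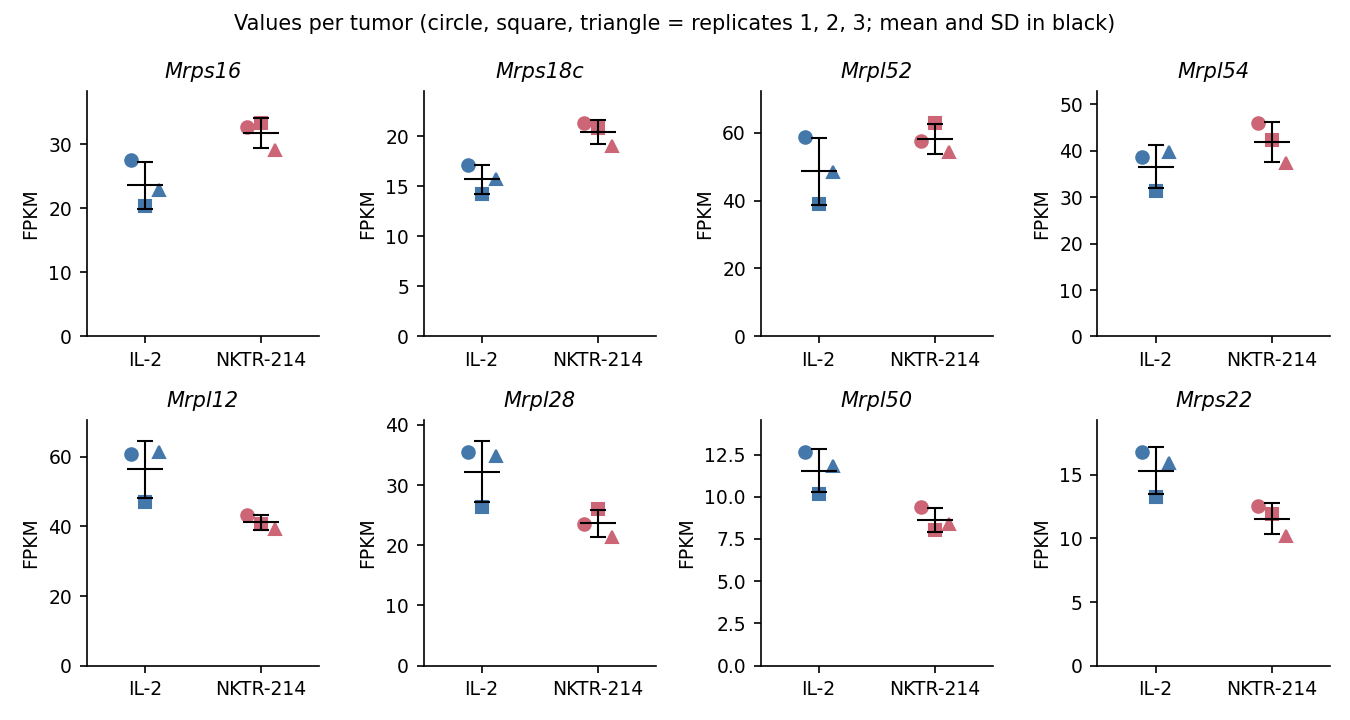
Each panel shows the FPKM of 1 gene as deposited, with 1 symbol per tumor (circle, square and triangle for replicates 1, 2 and 3) and the group mean and SD in black, for ACT + IL-2 (blue) and ACT + NKTR-214 (red). *Mrps16* and *Mrps18c* stand higher in ACT + NKTR-214 without overlap, *Mrpl52* and *Mrpl54* overlap, and the 4 genes of the lower row stand lower without overlap. The square of ACT + IL-2, replicate 2, is the lowest of its group in every panel.

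The family spanned a 256.1-fold range of mean FPKM, with 70 of the 78 members between 5 and 50. The most abundant members were *Mrpl13* (68.1 FPKM over all tumors), *Mrpl52* (53.4) and *Mrpl12* (48.8), all of the large subunit. *Mrpl13* had 78.6, 60.5 and 74.7 FPKM in ACT + IL-2 and 67.1, 59.3 and 68.1 in ACT + NKTR-214, with overlapping groups and a log2 fold change of -0.13 (adjusted p = 0.593, limma). After 75th percentile scaling its groups did not overlap (-0.24, adjusted p = 0.0623, limma), and it was called lower with quantile normalization (-0.25, adjusted p = 0.0409, limma) and with a common FPKM sum (-0.31, adjusted p = 0.0310, limma). *Mrpl52* had 58.7, 38.9 and 48.3 and then 57.4, 63.0 and 54.3 FPKM, with a log2 fold change of 0.27 that was not called (adjusted p = 0.249, limma) and was 0.16 after scaling. *Mrpl54*, also of the large subunit and next after *Mrpl52* in the order of log2 fold changes, had 38.7, 31.3 and 39.8 and then 46.1, 42.3 and 37.4 FPKM, and its log2 fold change was 0.19 (adjusted p = 0.379, limma). The least abundant were *Mrps36* (0.266 FPKM, 2 to 7 reads), *Mrpl23* (0.612 FPKM, 7 to 9 reads) and *Mrpl1* (2.86 FPKM). No difference was detectable at this depth in the first 2. Parts of *Mrps36* and *Mrpl23* recur in pseudogenes (*Mrps36-ps1* and *Mrpl23-ps1*), so their low values are uncertain. *Mrpl1* had 3.04, 2.47 and 2.96 FPKM and then 3.17, 3.10 and 2.45, with a log2 fold change of 0.03 that turned negative under all 4 scalings (-0.21 to -0.04) and was not called under any.

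Besides *Mrpl12*, *Mrps18a* and *Mrps36*, 3 members were described because they have a role or place that the symbol does not show. *Mrps30*, in the large subunit despite its name, had 22.3, 16.2 and 20.4 FPKM in ACT + IL-2 and 21.1, 19.0 and 16.7 in ACT + NKTR-214, with a log2 fold change of -0.04. *Mrpl58*, a peptidyl-tRNA hydrolase that frees stalled ribosomes, had 10.4, 7.74 and 9.95 and then 9.28, 9.50 and 7.50 FPKM, with -0.08. *Mrpl41*, which has also been linked to p53 and cell death, had 4.07, 3.43 and 3.70 and then 3.94, 3.56 and 2.98 FPKM, with -0.08. None of these 3 passed the test as deposited or after 75th percentile scaling, where they were -0.15, -0.18 and -0.17. With a common FPKM sum *Mrps30* (-0.22, adjusted p = 0.0319, limma) and *Mrpl58* (-0.25, adjusted p = 0.0229, limma) were called lower, and with quantile normalization *Mrpl41* was (-0.27, adjusted p = 0.0384, limma).

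The lists that follow are read against the shares of all genes given above, 20.7% higher and 8.28% lower on deposited values and 23.0% and 26.2% after 75th percentile scaling. Subunits with symbols outside the pattern were measured for 5 of 7. *Ptcd3*, a small subunit protein that binds RNA, fell from 24.8, 20.6 and 24.6 FPKM to 18.8, 13.9 and 16.1, a log2 fold change of -0.50 (adjusted p = 0.0216, limma). After scaling, *Dap3* (log2 fold change -0.21) and *Gadd45gip1* (-0.25), also subunits of the ribosome, were called lower too. Of 16 translation factors, 1 (6.25%, against 8.28% of all genes) fell on deposited values and 11 (68.8%, against 26.2%) were called lower after 75th percentile scaling, with 0 higher in either. The one was *Gfm1*, the elongation factor that moves the ribosome along, with 29.7 ± 4.42 FPKM in ACT + IL-2 and 19.9 ± 1.84 in ACT + NKTR-214 (SD, n = 3), no overlap, and a log2 fold change of -0.55 (adjusted p = 0.0123 by limma).

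Of 24 assembly factors tested, 2 rose and 2 fell on deposited values, each 8.33% of the list, against 20.7% and 8.28% of all genes. After 75th percentile scaling 2 were called higher and 4 lower. These shares of 8.33% and 16.7% were below the 23.0% and 26.2% of all genes. The share called lower was 33.3% with quantile normalization (32.1% of all genes) and 29.2% with a common FPKM sum (31.3%). With a common number of gene reads it was 16.7% (24.7%). *Ddx28*, a helicase for the large subunit, rose from 4.56 ± 0.577 to 6.96 ± 0.951 FPKM (SD, n = 3, log2 fold change 0.51), and *Mettl17* of the small subunit rose by 0.46. *Noa1*, a GTPase for the small subunit, fell from 14.1, 11.5 and 13.7 FPKM to 9.59, 8.48 and 8.39 (log2 fold change -0.52), and *Fastkd2*, which binds mitochondrial RNA, had a log2 fold change of -0.45. Among 20 tRNA synthetases and amidotransferase subunits of mitochondria, 8 (40.0%, against 26.2%) were called lower after scaling. Of 10 genes for transcription and replication of mitochondrial DNA, 0 passed on deposited values in limma, with 1 lower at an unadjusted p under 0.05, and 7 (70.0%, against 26.2%) were called lower after scaling. These 7 were *Polrmt* (scaled log2 fold change -0.25), *Tfb2m* (-0.40), *Polg* (-0.30), *Twnk* (-0.22), *Ssbp1* (-0.38), *Mgme1* (-0.36) and *Top1mt* (-0.25).

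Regulators of nuclear genes for mitochondria were at 9 entries, of which 1 was called lower on deposited values (11.1%, against 8.28% of all genes) and 5 after 75th percentile scaling (55.6%, against 26.2%), with 0 higher. *Ppargc1a* fell from 40.2, 30.1 and 41.5 FPKM to 16.4, 8.11 and 15.2, a log2 fold change of -1.47 with no overlap (adjusted p = 8.47e-05, limma) that was -1.57 after scaling. The 3 factors of the list that name motifs above passed the test only after scaling. *Nrf1* had 6.47, 5.66 and 6.86 and then 5.73, 5.94 and 4.90 FPKM, and *Gabpa*, a subunit of GABP, 10.9, 9.13 and 11.3 and then 10.6, 9.55 and 8.83, and on the log2 scale the scaled difference was -0.26 for *Nrf1* (adjusted p = 0.0265, limma) and -0.20 for *Gabpa* (adjusted p = 0.0386, limma). *Yy1* had 38.7, 30.2 and 41.0 and then 36.4, 31.3 and 31.9 FPKM, with -0.24 (adjusted p = 0.0325, limma). The fifth was *Pprc1*, a relative of *Ppargc1a*, with -0.24 (adjusted p = 0.0359, limma). *Myc*, which is known to drive genes for both kinds of ribosome, had 26.1, 20.9 and 32.3 and then 30.8, 34.4 and 31.2 FPKM (log2 fold change 0.29, adjusted p = 0.198, limma).

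Of 84 genes tested for proteins of the cytosolic ribosome, 11 rose on deposited values, or 13.1% against 20.7% of all genes, and 1 fell. After 75th percentile scaling 36 were called higher (42.9%, against 23.0%) and 5 lower (5.95%, against 26.2%). The number called higher was 24 with quantile normalization (28.6%, against 18.8%) and 25 with a common FPKM sum (29.8%, against 20.6%). Their median log2 fold change was 0.28 as deposited and 0.20 after 75th percentile scaling, against -0.08 and -0.18 for the mitochondrial family. Their share of the FPKM sum was 2.05% ± 0.0403 in ACT + IL-2 and 2.28% ± 0.00942 in ACT + NKTR-214 (SD, n = 3), with no overlap. Many of these genes have processed pseudogenes that could take or lose reads. Of 82 nuclear genes tested for the respiratory chain, 2 rose and 2 fell as deposited (2.44% each), 3 were called higher and 43 lower after scaling (3.66% and 52.4%), and their share of the FPKM sum was 2.97% ± 0.0626 and 2.39% ± 0.140 (SD, n = 3). The difference between the families was not tested.

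**Figure D4:**
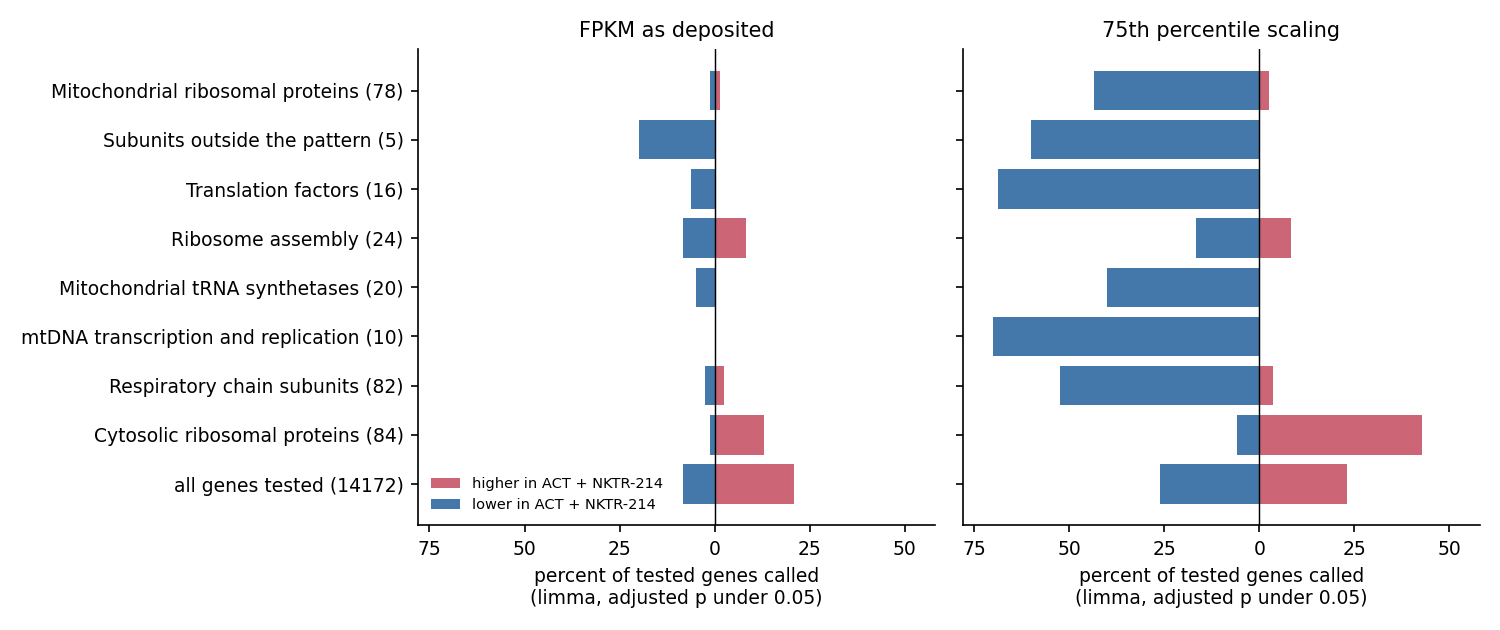
Bars give the percent of tested genes of each list (number in brackets) that limma called higher (red, to the right) or lower (blue, to the left) in ACT + NKTR-214, on FPKM as deposited and after scaling to a common 75th percentile. After scaling, 43.6% of the mitochondrial ribosomal protein genes and 52.4% of the respiratory chain genes were lower against 26.2% of all genes, and 42.9% of the cytosolic ribosomal protein genes were higher against 23.0%.

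Marker genes of several cell types differed between the groups as well. Genes of T cells were higher in ACT + NKTR-214 (7 of 7 measured, also after 75th percentile scaling), with a summed level of 10.5 to 26.0 FPKM in ACT + IL-2 and 142 to 308 in ACT + NKTR-214. Macrophage genes were also higher (7 of 7, and 6 after scaling, 205 to 561 and 1015 to 1831 FPKM). Of 8 melanocyte genes, which mark B16-F10 itself, 6 fell (8 after scaling), with sums of 5604 to 7182 and 2756 to 3896 FPKM and no marker near 0. *Mitf* fell from 126, 99.3 and 120 FPKM to 38.2, 19.4 and 35.7. Genes of cycling cells fell in 4 of 7 (5 after scaling), with sums of 233 to 283 and 144 to 209 FPKM. Skeletal muscle, rich in mitochondria, was traced by 7 genes, of which 4 fell (5 after scaling), with low and overlapping sums of 40.3 to 104 and 34.2 to 48.0 FPKM. Fibroblast genes rose in 6 of 7 (3 after scaling), with overlapping sums (220 to 652 and 586 to 1171 FPKM), and of 5 endothelial genes 1 rose. Neutrophil genes rose in 3 of 3 tested and adipocyte genes in 2 of 5 (0 after scaling). The part of these cells in the levels of the mitochondrial ribosomal protein genes was not tested.

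In the genome, the 78 genes were spread over 17 chromosomes, each as 1 protein-coding gene of GENCODE vM21. A protein-coding neighbour on the other strand started within 1000 bases upstream of the start of 18 members (23.1%), pairs that overlap at their starts not counted, against 9.46% of 13876 protein-coding genes tested. Such pairs include *Mrpl49* with *Fau*, which codes for a protein of the cytosolic ribosome, *Mrps12* with *Sars2*, the mitochondrial seryl-tRNA synthetase, and *Mrps18c* with *Helq*, whose starts were 59, 172 and 29 bases apart. Over all members, 30 had under 1% of their 50-base stretches in another gene's exons, 21 had over 10% and 3 had over 50%. Where a stretch is shared, the strand setting of the authors' counting, which is not given in the sources used here, decides which gene gets the read.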

How the data were processed

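RNA of 6 whole tumors, 3 from ACT + IL-2 and 3 from ACT + NKTR-214 mice, was sequenced by the authors as 50-base single-end reads. According to the labels and methods, HISAT2 2.0.4 was used for mapping to GRCm38 and HTSeq for counting per gene, and the deposited values are FPKM, 1 column per tumor. The annotation, gene lengths and strand setting are not given in the sources used here. The regimen is that of the study's methods.

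Values were taken as log2(FPKM + 1), a scale that understates the change of low genes. The 14172 genes that averaged 0.1 FPKM or more were fitted with limma 3.58.1 (lmFit, eBayes with trend) in R 4.3.3, with Benjamini-Hochberg adjustment over all of them. All 6 columns were used. Whole reads behind the FPKM values were recovered from their steps, for 14635 of 15116 entries with enough values. Gene reads are the sum over these 14635 entries. The number of mapped reads rests on annotated lengths and is approximate, while ratios between libraries do not depend on them. A count model was not used. The count of mitochondrial tRNA synthetases called on deposited values is not reported here.

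The members, gene lists and tests were chosen with earlier results of these data known. Named members were those that passed the test, the 3 highest and 3 lowest, paralogs, those outside what their symbol says or with a second role, and, in other lists, the largest called changes. Other names are given as chosen after their values were seen. Replicate numbers mark different mice. Deviations from the group means of same-numbered tumors correlated at -0.206, -0.0667 and 0.396. These values have no common sign and cannot tell whether same-numbered tumors share a batch. Alternatives were other pseudocounts, minimum levels, scalings, variance settings, a replicate block and each tumor left out. The fit and the recovery of reads were tested on simulated data. Shared stretches were found by matching every 50 bases of GENCODE vM21 exons, which may differ from the authors' annotation. Promoters were from RefSeq (GRCm38.p6). Python 3.11.15 was used with numpy 2.4.6, pandas 2.3.3 and matplotlib 3.10.9.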

Additional observations from a re-analysis of the deposited data

How the results depend on the processing

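The number of members called depended mainly on the scaling between libraries. On deposited values 1 member was higher and 1 lower. These numbers were 2 and 34 after 75th percentile scaling, 2 and 37 after quantile normalization, and 2 and 45 with a common FPKM sum, which also moved the median log2 fold change from -0.08 to -0.25. With a common number of gene reads, an alternative chosen after seeing the data, they were 2 and 32. Relative to the median of the members in each tumor, also added later, they were 3 and 20. No minimum level gave 0 and 0, as did no moderation of the variance, and eBayes without the trend gave 1 and 2. Pseudocount 0.1 and a minimum of 1 FPKM changed neither number.

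With each tumor left out in turn, deposited values called 0 to 1 members higher and 0 to 13 lower. The 13 came without ACT + IL-2 replicate 2, and the other 5 fits called 0 lower. On a common number of gene reads, the same fits called 2 to 3 higher and 19 to 29 lower: 22, 19 and 24 without ACT + IL-2 replicates 1, 2 and 3, and 29, 24 and 29 without those of ACT + NKTR-214. In each of these 6 fits 17 members were lower and 2 higher. No share of all genes is given for the fits that left out a tumor. The counts of these fits show only how the calls depended on single tumors. The median log2 fold change was negative in every fit, and -0.10 in the one relative to the median of the members. As a replicate block, the numbers of the labels gave 1 member higher and 2 lower, and among the members named in the text it changed 1 call, that of Mrpl28 (adjusted p = 0.0490 against 0.0518 without the block, limma). The sign of the log2 fold change turned for 9 of the members named in the text, all of them under 0.1 in size as deposited and called neither as deposited nor in the fit where the sign turned. With 75th percentile scaling, quantile normalization, a common FPKM sum and a common number of gene reads, it was -0.0545, -0.213, -0.108 and -0.0411 for Mrpl1 (0.03 as deposited) and -0.0370, -0.0267, -0.107 and -0.0198 for Mrps18a (0.07 as deposited). For Mrps36 (0.05 as deposited) it was -0.107 with quantile normalization and -0.000808 with a common FPKM sum. With each tumor left out of the deposited values it ran from -0.0414 to 0.114 for Mrpl1, -0.0252 to 0.16 for Mrps18a, -0.0114 to 0.154 for Mrps36, -0.103 to 0.00188 for Mrpl23, -0.179 to 0.0293 for Mrps18b, -0.168 to 0.0484 for Mrps30, -0.200 to 0.0140 for Mrpl58, -0.150 to 0.00586 for Mrpl41 and -0.199 to 0.0432 for Mrps34. None of the named members changed sign where it was called. Mrps16 and Mrpl12 lost their call on deposited values with no minimum (adjusted p = 0.0600 and 0.0568, limma) and with no moderation (0.127 and 0.116). Depth limits what can be said of Mrps36 and Mrpl23, with under 10 reads in every library. Why the deposited values and the scaled ones differ beyond the share of reads in genes was not tested.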
